A study of Rattus norvegicus with 12 samples.

Results

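Hearts of wild-type male SD rats gavaged daily with sorafenib at 50 mg/kg for 28 days were compared with hearts of rats that received the same volume of deionized water for the same 28 days. The comparison holds 6 of the 12 libraries of the series, 3 with sorafenib and 3 with water, chosen by the treatment and day in their labels. The other 6 libraries, sorafenib or water for 14 days, are used here only to set the day 28 values beside those of day 14. Total RNA of heart tissue was depleted of ribosomal RNA and sequenced, so that each value averages over all cells of the tissue, and fewer cells of a type cannot be told apart from less RNA per cell. The labels do not name the part of the heart that was taken or state that each library is a separate rat, so the tests measure the spread between these libraries.

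Sorafenib is a kinase inhibitor given against cancers of liver, kidney and thyroid. It blocks the receptors of vascular endothelial growth factor (VEGF) and of platelet-derived growth factor, the receptors KIT and RET, and the RAF kinases that pass growth factor signals to the MAPK cascade. In the heart, VEGF from muscle cells acts on the receptor KDR of the capillary endothelium, and heart failure, hypertension and ischaemia are known adverse effects of the drug class. The series names the splicing factor RBM20, which controls the isoforms of titin and other muscle proteins, as its subject.

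Sorafenib replicate 3 held only 1036483 counts, while the other 5 libraries ranged from 16785038 to 26403196. It had a count for 16908 genes, against 21899 to 22748 in the others, and 1 count equalled 0.965 CPM, the count scaled to library size, or 0.827 CPM after TMM normalization. It alone set the first principal component, which held 55.3% of the variance, and it was kept, with the gene groups also counted without it. The ribosomal precursor Rn45s took 1.64% of its counts and 1.26% of those of sorafenib replicate 2, against 0.286% to 0.537% in the other 4 libraries of day 28. For mt-Rnr2, a ribosomal RNA of mitochondria, the share was 1.32% in sorafenib replicate 2 and at most 0.205% in the others. The part of either in the differences described here was not tested. Of 12 cardiomyocyte markers all 12 passed the filter, with Myh6, the main myosin of the rat ventricle, at 21259, 25728 and 33677 CPM under water and 29269.9, 18450.2 and 31179 under sorafenib. All 12 lay lower in sorafenib, with a median log2 fold change of -0.26, against -0.0026 over all genes. Without replicate 3 the median was -0.07. Relative to water the list means were -0.17, -0.69 and 0.001 in sorafenib replicates 2, 3 and 4 and -0.23, -0.05 and 0.28 in those of water.

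No gene passed the test. Of 17021 genes, 0 (0%) had an adjusted p below 0.05 in edgeR's quasi-likelihood test, and the smallest adjusted p was 0.0532. At an unadjusted p below 0.05 there were 2531 (14.9%), with 1198 higher (7.04%) and 1333 lower (7.83%) in sorafenib, while 851 would be expected at this threshold if no gene differed. These shares are the background for the gene groups below. In 1835 genes (10.8%) all sorafenib libraries lay above all water libraries, and in 2011 (11.8%) all lay below, together 22.6%. DESeq2, the other count test, called 146 higher (0.875%) and 124 lower (0.743%) of the 16687 genes it adjusted. Without sorafenib replicate 3 edgeR again called 0, with 1111 higher (6.28%) and 1255 lower (7.09%) of 17695 at an unadjusted p below 0.05. All values below are TMM-normalized CPM, with single libraries in the order of replicates 2, 3 and 4, and all changes are log2 fold changes ± SE from edgeR. As none passed the adjusted threshold, differences are given as levels, and "below 0.05" refers to the unadjusted p. Where 2 sets of levels are joined by "against", water comes first. Counts of members given as higher or lower are of those below 0.05, unless all members are said to lie higher or lower.

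Among the genes of smallest p on the higher side were a few of metabolism, transport and transcription. Prodh1, proline dehydrogenase of the mitochondrial inner membrane, was at 83.4, 87.2 and 75.8 CPM in the water libraries and at 257, 247 and 181 with sorafenib (1.47 ± 0.18, adjusted p 0.0532). The change of Prodh1 without replicate 3 was 1.41 ± 0.19. The 12 genes of this side were chosen among those whose sorafenib libraries all lay above all water libraries. Ngdn, neuroguidin, a protein of ribosome biogenesis and of translational control, was at 32.2, 23.99 and 29.6 against 71.5, 68.6 and 82.1 CPM (1.38 ± 0.17, adjusted p 0.0532). Galnt15, an enzyme that starts O-linked glycans, was at 11.4, 8.15 and 10.2 against 28.5, 20.7 and 23.5 CPM (1.32 ± 0.21). Lvrn, the aminopeptidase laeverin, was at 6.40, 6.72 and 6.32 against 17.2, 9.92 and 18.6 CPM, with the shallow library lowest of the sorafenib group. Plag1, a zinc finger transcription factor that raises Igf2 in other tissues, was at 31.9, 38.9 and 33.1 against 58.4, 71.1 and 74.5 CPM (0.97 ± 0.17). Zbtb25 and Zfp709l1, also of zinc finger families, had changes of 0.998 ± 0.19 and 0.90 ± 0.17. Atcay, known from the nervous system as caytaxin, stood at 9.93, 9.30 and 6.28 against 53.8, 58.7 and 16.6 CPM, with replicate 4 well under the other sorafenib libraries. Erich6 (0.753, 1.01 and 0.523 against 5.01, 2.48 and 5.96 CPM), Ttll9 (2.17 ± 0.39) and Mroh7 (2.10 ± 0.40) were at low levels, and in replicate 3 Erich6 rested on 3 counts. The clock repressor Ciart completes the 12 and is described with its group. In mRatBN7.2, Prodh1 lies on chr11:82910043-82927305 (plus strand) and Ngdn on chr15:28489950-28497286 (plus strand).

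On the lower side the genes of smallest p held several of growth factor signalling and of the early transcriptional response. Nrep, a small protein known from regenerating neurons and from wound fibroblasts, was at 77.9, 57.4 and 72.8 CPM under water and 21.2, 28.1 and 21.8 under sorafenib (-1.60 ± 0.19, adjusted p 0.0532). The change of Nrep without replicate 3 was -1.69 ± 0.19. Mx2, an antiviral protein induced by interferon, was at 49.5, 25.3 and 30.99 against 6.18, 7.44 and 9.19 CPM (-2.20 ± 0.29, adjusted p 0.0796). Hopx, a homeodomain cofactor of heart development, was at 36.9, 42.1 and 42.6 against 16.5, 20.7 and 12.6 CPM (-1.37 ± 0.20). Dyrk2, a kinase of the DYRK family, was at 105, 129 and 124 against 49.8, 62.8 and 62.01 CPM (-1.05 ± 0.16). Myadm, a membrane protein of lipid rafts, was at 145, 139.9 and 158 against 66.7, 73.6 and 81.8 CPM (-0.996 ± 0.15). Maoa, the monoamine oxidase that breaks down noradrenaline and serotonin in heart muscle, was at 314, 272 and 291 against 124, 116 and 64.2 CPM (-1.54 ± 0.24). Pcdh17, a protocadherin, had a change of -1.19 ± 0.20. The remaining 5 of the 12 (Spry4, Egr1, Btg2, Nrp2 and Ccnd1) are described with their groups. All 12 were chosen among genes whose groups do not overlap, so this separation is no finding about them. Nrep lies on chr18:25017069-25046564 (minus strand) and Mx2 on chr11:36905698-36936308 (plus strand) of mRatBN7.2.

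**Figure D1:**
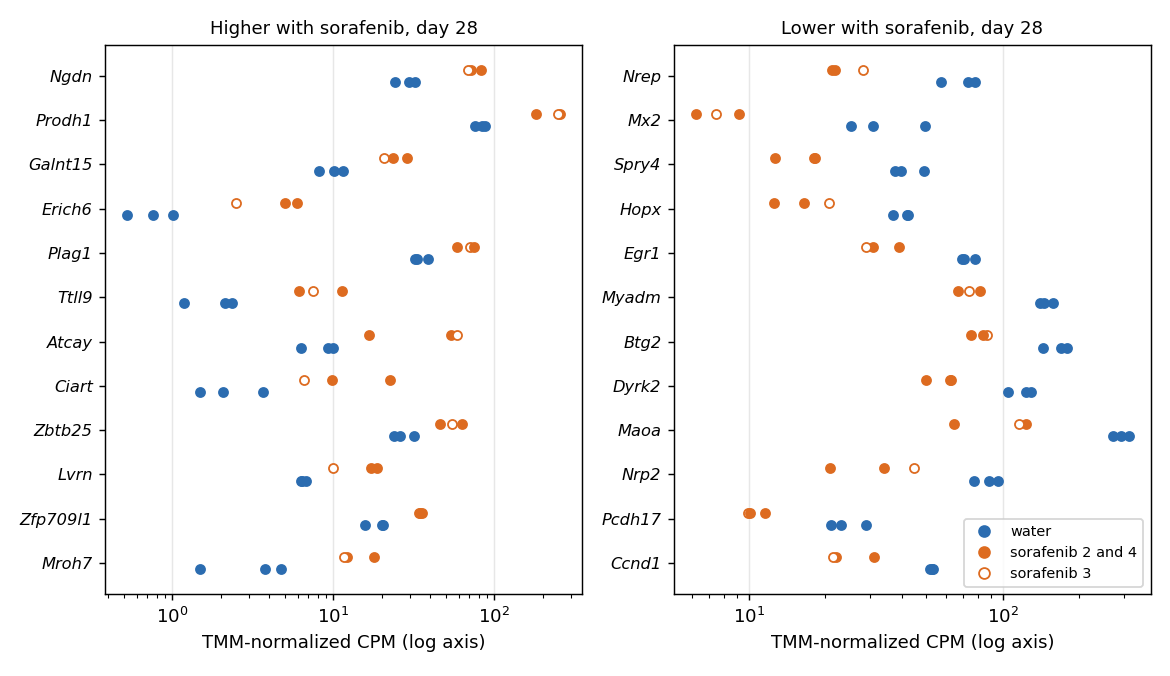
CPM per library (log axis) of the 24 genes of smallest p whose groups do not overlap, 12 higher (left) and 12 lower (right) in sorafenib. Blue points are water libraries and orange points sorafenib libraries, with sorafenib replicate 3 drawn open. By this choice, the 3 orange points lie on one side of the 3 blue points in each of the 24 genes.

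The receptors of VEGF differed among themselves. VEGF binds KDR and FLT1 on endothelial cells, and the neuropilins NRP1 and NRP2 are co-receptors that also bind semaphorins. Nrp2 was at 95.9, 77.5 and 88.1 CPM under water and 34.1, 44.6 and 20.9 under sorafenib (-1.47 ± 0.25), and Nrp1 at 349, 334 and 447 against 161, 192 and 94.3 (-1.35 ± 0.26). Kdr, the main signalling receptor, was at 179, 151 and 177 against 88.2, 125 and 71.6 CPM (-0.86 ± 0.21). For these 3 genes the groups did not overlap and the shallow replicate 3 was the highest of the sorafenib libraries, so that the changes without it were -1.67 ± 0.23, -1.56 ± 0.27 and -1.08 ± 0.18. All 3 were below 0.05 and called by DESeq2, 3 of the 5 receptors tested against a background of 7.83% lower. Flt1, the high-affinity receptor, was at 382, 477 and 272 against 434, 364 and 418 CPM (0.11 ± 0.22), and Flt4, the lymphatic receptor, had a change of -0.18 ± 0.21. Their groups overlapped. Among the ligands 0 of 5 was below 0.05 with all libraries, and 2, both lower, without replicate 3 (Pgf, -0.88 ± 0.37, and Vegfc, -0.73 ± 0.31). With all libraries, Vegfa was at 638, 698 and 483 against 964, 908 and 667 CPM (0.48 ± 0.23) and the placental growth factor Pgf at 3.44, 3.13 and 4.27 against 2.01, 2.48 and 1.92 (-0.83 ± 0.38).

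Genes that VEGF signalling raises in endothelial cells, as a list, lay lower in 17 of 21, with 11 below 0.05 and 0 on the higher side (median -0.55 and without replicate 3 -0.53, against -0.0026 over all genes). Aplnr, the apelin receptor of vessels, was at 44.99, 30.98 and 58.4 CPM under water and 19.1, 18.2 and 10.6 under sorafenib (-1.53 ± 0.29), and its ligand Apln had a change of -0.89 ± 0.27. Esm1, a proteoglycan of tip cells, had 21, 62 and 91 counts with water and 4, 0 and 4 with sorafenib, and its groups did not overlap. Rcan1, the inhibitor of calcineurin that VEGF induces, was at 463, 366 and 438 against 296, 212 and 184 CPM (-0.87 ± 0.22). Lama4, a laminin chain of the capillary basement membrane, was at 296, 318 and 317 against 156, 216 and 154 CPM (-0.83 ± 0.18). The means of this list relative to the mean of water were -0.48, -0.55 and -0.62 in the sorafenib libraries and -0.01, -0.05 and 0.05 in the water libraries, so the groups stood apart. The shallow library lay between the others.

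Of 18 kinases that sorafenib inhibits, 4 were below 0.05 and lower and 0 higher. Ret, a receptor of neurotrophic factors, was at 14.96, 12.7 and 16.4 CPM under water and 6.68, 6.61 and 4.90 under sorafenib (-1.31 ± 0.24), and Kit, the stem cell factor receptor, at 23.1, 23.99 and 27.4 against 10.6, 14.1 and 17.2 (-0.84 ± 0.22). Kdr was also among them. Csf1r, the receptor of macrophage colony stimulating factor, was at 44.5, 45.8 and 66.9 against 19.7, 54.6 and 27.2 CPM (-0.77 ± 0.33), with the shallow replicate 3 inside the range of water. Braf, which codes a kinase the drug blocks, had a change of 0.13 ± 0.18, and its groups overlapped.

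The MAPK cascade induces its own inhibitors, and these feedback genes serve as a readout of its output. The list called MAPK feedback here also holds genes that are not such inhibitors, among them Ccnd1 and Epha4. Epha4 is counted among the guidance genes as well. Spry4, a Sprouty protein that blocks receptor tyrosine kinase signalling, was at 37.5, 49.2 and 39.8 CPM under water and 12.7, 18.2 and 18.1 under sorafenib (-1.41 ± 0.20, without replicate 3 -1.46 ± 0.22). Ccnd1, cyclin D1, was at 52.00, 52.7 and 53.05 against 22.1, 21.5 and 31.2 CPM (-1.04 ± 0.18). Dusp6, the phosphatase of ERK, was at 32.8, 38.6 and 30.3 against 18.3, 19.01 and 18.1 CPM (-0.88 ± 0.17), and the ephrin receptor Epha4 had a change of -1.20 ± 0.34. In these 4 the groups did not overlap. Of 20 list members 7 were lower and below 0.05, with a median of -0.40; 1, the phosphatase gene Dusp4 (0.58 ± 0.25), was higher. Relative to water the list means were -0.39, -0.40 and -0.37 in the sorafenib libraries and 0.05, -0.07 and 0.01 in the water libraries.

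Immediate early genes, transcription factors and regulators switched on within minutes of growth factor or stress signals, lay lower in 26 of 29, with 15 below 0.05 and 0 higher (median -0.51, without replicate 3 -0.47). DESeq2 called 8 of them lower. Egr1, a zinc finger factor, was at 69.5, 78.1 and 70.2 CPM under water and 30.9, 28.9 and 39.1 under sorafenib (-1.11 ± 0.17). Btg2, an antiproliferative gene, was at 179, 145 and 169 against 74.9, 86.8 and 83.5 CPM (-1.01 ± 0.16). Atf3, a stress-induced repressor, was at 26.6, 19.2 and 24.2 against 8.80, 5.79 and 11.6 (-1.30 ± 0.24). Fos, a subunit of AP-1, was at 44.99, 47.6 and 50.5 against 29.97, 25.6 and 19.7 (-0.93 ± 0.19). In all 4 the highest sorafenib library was below the lowest water library. Dusp1, the nuclear MAPK phosphatase, had a change of -0.59 ± 0.19. Library means of the list were -0.70, -0.61 and -0.52 with sorafenib and 0.10, 0.06 and -0.17 with water.

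The 250 bases before the start of Egr1 and of Btg2 are shown because these genes had the smallest p of the group, and each holds an element known for immediate early genes. Sequences are RefSeq's of GRCr8, a later assembly than that of the counts. Capitals mark the CArG box, the site of serum response factor (CC, then 6 of A or T, then GG), in Egr1 at chr18:26736828-26737077 of the plus strand, and the cyclic AMP response element TGACGTCA in Btg2 at chr13:48087691-48087940 of the minus strand, both searched on both strands. Egr1 holds 2 copies of the first, and Btg2 1 of the second.
Egr1: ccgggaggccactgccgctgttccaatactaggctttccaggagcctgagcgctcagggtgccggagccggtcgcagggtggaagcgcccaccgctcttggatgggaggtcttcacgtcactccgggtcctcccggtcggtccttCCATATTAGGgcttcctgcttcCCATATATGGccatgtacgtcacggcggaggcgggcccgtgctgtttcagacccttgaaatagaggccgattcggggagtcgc
Btg2: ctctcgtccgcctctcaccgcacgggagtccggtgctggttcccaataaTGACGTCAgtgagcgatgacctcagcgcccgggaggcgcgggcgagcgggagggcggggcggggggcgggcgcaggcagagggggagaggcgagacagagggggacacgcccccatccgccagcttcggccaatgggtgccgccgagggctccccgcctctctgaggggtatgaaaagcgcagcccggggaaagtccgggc
Of 22 list members with an entry in the promoter table, 4 held a CArG box (Egr1, Egr2, Klf6 and Zfp36) and 5 the cyclic AMP element (Btg2, Dusp1, Ier2, Jund and Maff). Over all 33469 promoters the shares were 1.5% and 1.59%.

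Clock genes were a group with many members on the higher side. In the molecular clock CLOCK and BMAL1 drive the Per, Cry, Rev-erb and Ciart genes through E-boxes, and these repress them in turn, while DBP, TEF and HLF act on D-boxes. Ciart was at 3.67, 2.07 and 1.48 CPM under water and 9.75, 6.61 and 22.5 under sorafenib (2.53 ± 0.47). Dbp was at 19.9, 10.6 and 12.6 against 42.1, 23.97 and 61.2 (1.63 ± 0.32). Per3 was at 37.04, 20.7 and 11.2 against 68.2, 62.8 and 83.7 (1.66 ± 0.36), and Per2 at 52.9, 40.8 and 27.4 against 62.95, 90.1 and 126 (1.21 ± 0.29). In these 4 genes every sorafenib library lay above every water library, with replicate 4 the highest. Of 15 repressors and outputs 9 were higher and below 0.05, against a background of 7.04%, and 0 lower (median 0.56, without replicate 3 0.54). The activators pointed the other way: Arntl, which codes BMAL1, was at 36.1, 51.3 and 61.03 against 34.5, 34.7 and 14.6 CPM (-0.88 ± 0.32) and Clock at 139.8, 158 and 165 against 118, 119.9 and 119 (-0.38 ± 0.15), 2 of 4 tested below 0.05. The labels give no time of day at which the hearts were taken, and its part in these values was not tested.

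Promoters of Ciart and Per2, clock repressors described above that hold such elements, are shown with the E-box CACGTG or the D-box TTATGTAA in capitals, searched on both strands of the 250 bases before the start. Ciart, at chr2:186112247-186112496 on the minus strand of GRCr8, holds 3 E-boxes, and Per2, at chr9:99496994-99497243 on the minus strand, holds 1 D-box.
Ciart: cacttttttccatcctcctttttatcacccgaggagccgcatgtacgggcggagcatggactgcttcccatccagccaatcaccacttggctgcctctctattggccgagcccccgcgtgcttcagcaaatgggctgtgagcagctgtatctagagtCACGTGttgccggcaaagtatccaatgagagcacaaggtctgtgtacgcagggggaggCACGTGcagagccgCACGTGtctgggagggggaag
Per2: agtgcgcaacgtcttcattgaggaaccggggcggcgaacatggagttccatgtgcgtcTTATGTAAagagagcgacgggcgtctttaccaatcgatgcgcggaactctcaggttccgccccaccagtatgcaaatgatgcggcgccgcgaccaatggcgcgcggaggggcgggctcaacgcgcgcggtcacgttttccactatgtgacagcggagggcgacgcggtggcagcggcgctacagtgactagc
Of 13 list members with an entry 5 held an E-box (Bhlhe40, Bhlhe41, Ciart, Nr1d1 and Tef) and 1, Per2, the D-box. Over all promoters the shares were 5.59% and 0.828%.

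**Figure D2:**
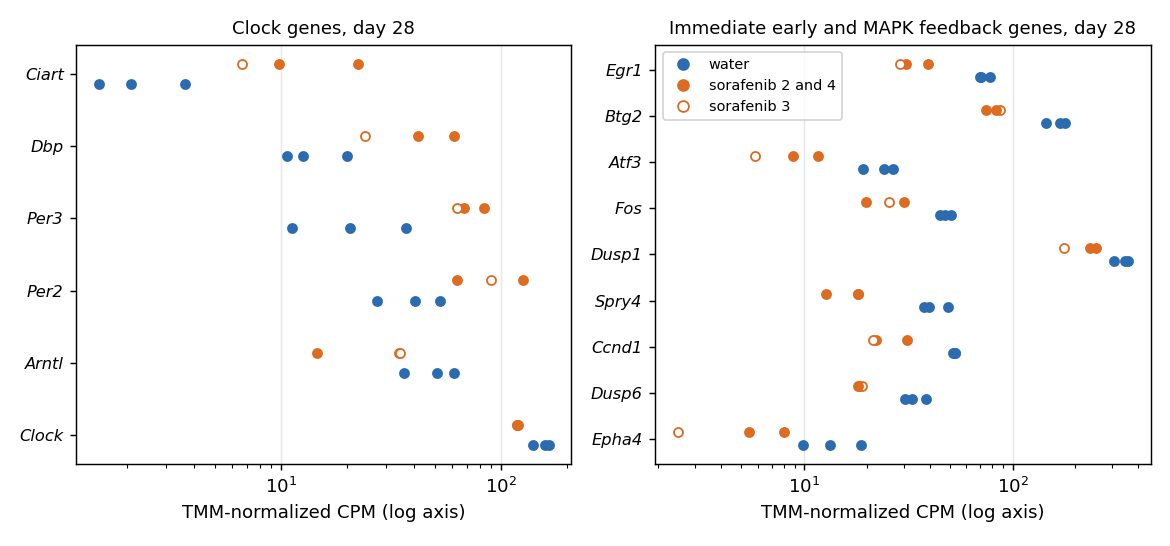
CPM per library (log axis) of 6 clock genes (left) and of 9 genes of the immediate early and MAPK feedback lists (right). These are the genes of the text without Dusp4, which was higher. Blue points are water, orange points sorafenib, and the open point is sorafenib replicate 3. Clock repressors lie higher with sorafenib and Arntl and Clock lower, and the 9 genes of the right panel lie lower in all 3 sorafenib libraries.

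Endothelial markers lay on both sides of zero. Of 23 tested, 13 lay higher and 10 lower (median 0.07), with 5 lower and below 0.05. Cav1, caveolin of the capillary surface, was at 298, 289 and 276 CPM under water and 157, 155 and 177 under sorafenib (-0.82 ± 0.16). Cd34 was at 82.1, 91.8 and 101 against 50.03, 62.00 and 51.02 (-0.78 ± 0.16), and the sialomucin Emcn at 31.1, 29.1 and 30.6 against 18.1, 17.4 and 18.6 (-0.74 ± 0.16), each without overlap of the groups. Kdr and the fatty acid carrier Fabp4 (-0.41 ± 0.17) were the others. Library means of the list were -0.04, 0.05 and -0.17 with sorafenib and 0.14, 0.09 and -0.23 with water, so the groups overlapped. Of 15 markers of pericytes and smooth muscle, 3 were lower: Kcnj8, a potassium channel of pericytes, at 32.99, 27.02 and 28.9 against 14.3, 17.4 and 15.2 CPM (-0.96 ± 0.18), Rgs5 (-0.59 ± 0.14) and Vtn (-0.79 ± 0.20).

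The basement membrane, the sheet of laminin, nidogen and collagen IV on which these cells rest, was a further group on the lower side. Of 21 laminins, integrins and linkers 6 were below 0.05 and lower, and in 11 of 21 all sorafenib libraries lay under all water libraries (background 11.8%). Itga6, a laminin receptor, was at 249.7, 247 and 192 CPM under water and 109, 122 and 74.5 under sorafenib (-1.19 ± 0.21). Lamb1 was at 369, 394 and 446 against 247, 283 and 278 (-0.58 ± 0.17), and the collagen-binding glycoprotein Sparc at 1065, 1146 and 1173 against 723, 775 and 730.0 (-0.60 ± 0.19). Here the shallow library lay between the others, with list means of -0.35, -0.31 and -0.30 in the sorafenib and -0.04, 0.05 and -0.02 in the water libraries. Serpinh1, the collagen chaperone, was at 159, 187 and 215 against 107, 125 and 78.9 CPM (-0.87 ± 0.20), and the membrane protease Mmp15 at 65.7, 70.4 and 82.3 against 50.7, 28.9 and 36.99 (-0.86 ± 0.20).

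Genes of the contacts and of the adrenergic control of heart muscle were lower in part. Gja1, connexin 43, the main gap junction protein of the ventricle, was at 515, 612 and 908 CPM under water and 259.7, 333 and 199 under sorafenib (-1.37 ± 0.27, without replicate 3 -1.57 ± 0.28). The groups did not overlap, and DESeq2 called the gene. Of 14 genes of the intercalated disc 4 were lower and below 0.05, the others being plakoglobin Jup (-0.47 ± 0.17), desmoglein Dsg2 (-0.48 ± 0.20) and Tjp1 (-0.38 ± 0.17). Of 24 genes of catecholamine signalling 9 were lower, among them Maoa, the anchoring protein Akap12 at 98.1, 110.4 and 85.1 against 49.1, 62.8 and 57.5 CPM (-0.81 ± 0.17), the cardiac adenylyl cyclase Adcy5 (-0.62 ± 0.20) and the receptor Adra1a (-0.68 ± 0.24). The anchor Akap5 (1.08 ± 0.38) was the 1 member higher and below 0.05. Scn4b, a sodium channel subunit, was at 195, 160.3 and 214 against 105, 81.01 and 124 CPM (-0.86 ± 0.20), and the pacemaker channels Hcn2 and Hcn4 had changes of -0.47 ± 0.15 and -0.94 ± 0.33. These were among 6 of 25 ion channel genes lower, with 1, the chloride channel Clcn2 (0.44 ± 0.17), higher. Sln, sarcolipin of the atrium, had 14, 93 and 18 counts with water and 0, 0 and 0 with sorafenib, at least 21.1-fold lower when set against a floor of 3 counts over the group. Water replicate 3 held most of these counts, and without it the bound was 7.99-fold. The atrial hormone Nppa ranged from 17.4 to 234 CPM among the water libraries and from 54.6 to 286 among the sorafenib libraries, and the atrial list, with 3 of 13 lower (Sln, Kcnj3 and Dkk3), had means of -0.19, -0.41 and -0.17 with sorafenib and -0.08, 0.36 and -0.28 with water. The part of atrial tissue in Sln and Hcn4 was not tested.

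Among secreted growth factors, Igfbp5, a binding protein of insulin-like growth factors, was at 65.1, 82.1 and 121 CPM under water and 41.6, 46.3 and 40.2 under sorafenib (-1.08 ± 0.23). Igf2 was on the other side at 39.9, 32.5 and 42.6 against 73.1, 76.9 and 55.1 (0.82 ± 0.18), with the receptor Igf1r at 0.41 ± 0.14. Fgf9 was at 9.13, 7.27 and 12.03 against 4.57, 2.48 and 2.92 CPM (-1.40 ± 0.33), and Tgfb1, the main fibrogenic cytokine, at 27.6, 25.1 and 22.1 against 14.8, 14.9 and 17.8 (-0.64 ± 0.18). In each of Igfbp5, Igf2, Fgf9 and Tgfb1 the groups stood apart. In the list, 2 of 31 were higher and 5 lower and below 0.05. Of 36 guidance genes 8 were lower, with the netrin receptor Unc5c at 14.5, 12.4 and 8.72 against 4.12, 4.96 and 2.61 CPM (-1.73 ± 0.33), Sema7a at 60.6, 58.2 and 56.1 against 35.5, 36.4 and 29.2 (-0.81 ± 0.16) and Sema3d (-0.86 ± 0.24), and 1, Sema4b (0.57 ± 0.22), was higher.

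Genes of drug metabolism were another group on the higher side, with 8 of 21 higher and below 0.05 and 0 lower (median 0.42, without replicate 3 0.46). Fmo2, a flavin-containing monooxygenase that oxidizes amines and sulphur compounds, was at 97.4, 107 and 96.3 CPM under water and 259, 122 and 251 under sorafenib (1.09 ± 0.25). The shallow library lay nearest the water libraries, and the change without it was 1.34 ± 0.15. Fmo4 and Fmo6, of the same family and at a few CPM or less, had changes of 1.02 ± 0.37 and 2.47 ± 0.57. Among genes of oxidative stress, the haem oxygenase Hmox1 was at 17.1, 12.5 and 21.2 against 35.7, 40.5 and 23.6 CPM (0.93 ± 0.25), while the glutathione peroxidase Gpx1 was at 247, 262 and 321 against 134, 137 and 198 (-0.82 ± 0.20). The superoxide-forming Nox4 was at 11.8, 8.43 and 9.72 against 3.34, 7.44 and 2.30 (-1.54 ± 0.39), and the sulphiredoxin Srxn1 had a change of -0.81 ± 0.23. Of that list 2 of 28 were higher (Hmox1 and Gstm1, 0.53 ± 0.22) and 6 lower.

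Rbm20 itself was at 228, 268 and 291 CPM under water and 277, 234 and 258 under sorafenib (-0.03 ± 0.17, without replicate 3 0.02 ± 0.18), and the groups overlapped. Of its known targets, the titin gene Ttn had a change of -0.24 ± 0.33, the ryanodine receptor Ryr2 -0.05 ± 0.25, the kinase gene Camk2d -0.17 ± 0.19 and the Z-disc gene Ldb3 0.24 ± 0.25. The groups overlapped in all 4. Counts per gene hold nothing on isoforms, so splicing was not measured here. Of 22 targets in the list 1, Rtn4 (-0.51 ± 0.16), was below 0.05. Other splicing regulators lay higher in 6 of 38 and lower in 0, at an unadjusted p below 0.05. Clk4, a kinase of SR proteins, was at 45.4, 46.6 and 33.1 against 65.3, 67.8 and 66.7 CPM (0.67 ± 0.17), Srsf11 at 114, 108 and 73.4 against 138, 155 and 143 (0.56 ± 0.19), and Clk3 and the muscle kinase Srpk3 had changes of 0.67 ± 0.23 and 0.54 ± 0.19. DESeq2 called 0 of these. Marks of muscle stress lay on both sides: Nppb was at -0.24 ± 0.36, Nppa at 0.28 ± 0.92, Myh7, the slow myosin, at 0.39 ± 0.27, and Cdkn1a, the cell cycle inhibitor p21, at -0.52 ± 0.20.

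**Figure D3:**
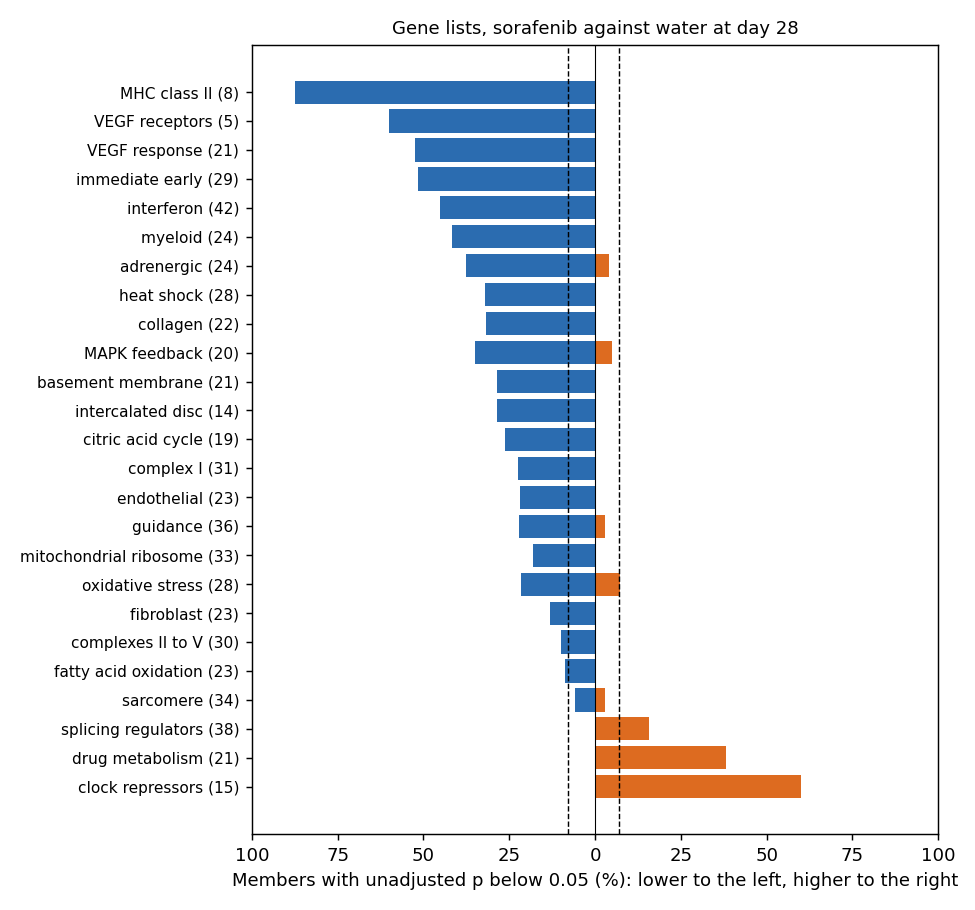
Share of the tested members of each gene list with an unadjusted p below 0.05, higher (orange, right) or lower (blue, left) in sorafenib. Only a chosen part of the lists is drawn, and labels give the number tested. Dashed lines mark the shares over all genes, 7.04% higher and 7.83% lower. Among the lists drawn, MHC class II, VEGF receptors, VEGF response and immediate early genes reach farthest to the left, and clock repressors farthest to the right.

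In a second set of groups the shallow sorafenib replicate 3 lay above the other sorafenib libraries, nearer to the water libraries or beyond the lowest of them. All 8 genes of MHC class II, which presents antigen on macrophages and other cells, lay lower, 7 of them below 0.05 (median -1.17), and 8 without replicate 3 (median -1.37). The list means were -1.34, -0.35 and -1.09 with sorafenib and -0.003, -0.19 and 0.20 with water, so here replicate 3 was still under all water libraries. RT1-Bb was at 22.8, 20.4 and 15.1 CPM under water and 4.62, 13.2 and 4.90 under sorafenib (-1.70 ± 0.36, without replicate 3 -2.03 ± 0.25). RT1-Ba was at 23.9, 23.6 and 23.9 against 5.46, 21.5 and 8.26 (-1.37 ± 0.38, without it -1.80 ± 0.23), and RT1-Da at 37.98, 38.4 and 56.2 against 12.03, 38.9 and 21.2, where replicate 3 lay inside the range of water. Of 24 myeloid markers 24 lay lower, 10 below 0.05 and 14 without that library. Adgre1, the macrophage marker F4/80, was at 6.35, 7.23 and 9.98 against 1.73, 5.79 and 2.30 CPM (-1.67 ± 0.43), C1qa, of complement, at 11.9, 11.9 and 21.7 against 4.29, 13.2 and 6.14 (-1.24 ± 0.40), and the factor XIII subunit F13a1 at 21.2, 28.96 and 38.9 against 9.86, 28.1 and 11.1 (-1.12 ± 0.37). Library means of the myeloid list were -1.10, 0.08 and -0.68 with sorafenib and -0.20, -0.21 and 0.41 with water. Replicates 2 and 4 were thus under all water libraries and replicate 3 among them. Lymphocyte markers had 1 of 11 below 0.05, Cd4 (-0.76 ± 0.33), which rat macrophages also carry.

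Interferon-induced genes lay lower in 37 of 42, with 19 below 0.05 and 0 higher (median -0.63, without replicate 3 -0.78). Besides Mx2 these were led by Bst2, tetherin, at 54.02, 46.4 and 55.8 CPM under water and 28.02, 35.5 and 27.2 under sorafenib (-0.82 ± 0.17), Oasl2 at 14.8, 5.89 and 7.02 against 2.56, 3.31 and 2.79 (-1.74 ± 0.41) and Rsad2, viperin, at 32.3, 15.4 and 21.7 against 12.1, 13.2 and 9.68 (-1.03 ± 0.29). Water replicate 2 was the highest in Mx2, Oasl2 and Rsad2. The list means were -0.78, -0.43 and -0.55 with sorafenib and 0.46, -0.45 and -0.0027 with water, so that water replicate 3 lay below the highest sorafenib library. In this list, as in the myeloid one, sorafenib replicates 2 and 4 lay under all water libraries. Among the water libraries the interferon mean was highest in replicate 2 and the myeloid mean in replicate 4. The part of myeloid cells in the interferon values was not tested. Of 22 chemokine genes 4 were lower, with the endothelial Cx3cl1 at 26.4, 22.8 and 36.4 against 17.6, 14.1 and 16.1 CPM (-0.81 ± 0.22) and Ccl6 at 6.59, 5.34 and 7.32 against 1.39, 7.44 and 2.05, where replicate 3 was the highest of all 6. Ccl24 and Cxcl11 were the others (-2.36 ± 0.65 and -0.81 ± 0.35).

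Fibroblast markers and collagens showed the same split. Of 23 fibroblast markers 3 were below 0.05 and lower with all libraries, and 12 without replicate 3. Of 22 collagens the counts were 7 and 14, and 1 was higher without it. Lum, lumican of the matrix, was at 46.9, 53.4 and 75.7 CPM under water and 25.5, 37.2 and 26.4 under sorafenib (-1.04 ± 0.23). Col8a1 was at 33.7, 54.6 and 31.5 against 9.47, 27.3 and 6.64 (-1.84 ± 0.43, without replicate 3 -2.31 ± 0.30), and Col15a1, of the zone below the basement membrane, at 324, 347 and 464 against 210.5, 221 and 198 (-0.85 ± 0.19). Mfap4, a microfibril protein, was at 68.9, 59.6 and 94.1 against 43.1, 43.8 and 34.1 (-0.90 ± 0.20), and the matricellular Cilp at 12.5, 19.4 and 11.6 against 6.46, 18.2 and 3.79 (without replicate 3 -1.50 ± 0.33). Lum, Mfap4, Col8a1 and Col15a1 stood apart between the groups with replicate 3 as well. The fibroblast list had means of -0.65, 0.20 and -0.61 in the sorafenib and -0.21, 0.01 and 0.20 in the water libraries.

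In another set of groups the shallow library lay lowest, and the difference was smaller without it. All 31 genes of respiratory complex I and all 30 of complexes II to V lay lower. Of these 7 and 3 were below 0.05, the second count near the background of 7.83% lower. Without replicate 3 the counts were 3 and 0, and the medians moved from -0.38 and -0.41 to -0.23 and -0.22. Ndufa12, a subunit of complex I, was at 118, 122 and 151 CPM under water and 64.01, 52.9 and 109 under sorafenib (-0.76 ± 0.25, without replicate 3 -0.59 ± 0.24). Atp5pb, of the ATP synthase, was at 587, 625 and 792 against 403, 281 and 579 (-0.66 ± 0.27, without it -0.45 ± 0.24). Relative to water the means of complexes II to V were -0.35, -0.97 and -0.07 in the sorafenib and -0.23, -0.07 and 0.30 in the water libraries. Sorafenib replicate 4 was inside the range of water, and water replicate 4 lay above all other libraries. The citric acid cycle had 5 of 19 below 0.05 and 0 without replicate 3, with the dehydrogenase subunit Idh3a at 239, 271 and 318 against 181, 150.5 and 232 CPM (-0.54 ± 0.20). Fatty acid oxidation had 2 of 23 (Eci2, -0.48 ± 0.19, and Hadh, -0.64 ± 0.26), near the background, and 0 without replicate 3. Heat shock genes had 9 of 28 and 5, with Hsp90aa1 at 176, 218 and 215 against 139, 119.9 and 164 (-0.52 ± 0.18). Sarcomere genes had 1 of 34 higher, Tcap, and 2 lower, Smyd1 and Actc1; without replicate 3 there were 1 higher and 0 lower, and the median went from -0.17 to 0.0017. Actc1, cardiac actin, was at 5755, 7975 and 7998 against 4151, 3102 and 5642 CPM (-0.75 ± 0.30, without replicate 3 -0.57 ± 0.27). Tcap, telethonin of the Z-disc, was at 791, 709 and 804 against 1508, 655 and 1619.9 (0.72 ± 0.31, without it 1.02 ± 0.19). The part of depth or RNA quality of this library in the split was not tested.

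The other groups were counted again without replicate 3. There were 3 lower among the VEGF receptors, 13 in the VEGF response, 5 target kinases, 14 immediate early genes, 8 of the basement membrane and 3 of the intercalated disc. MAPK feedback had 6 lower and 1 higher, catecholamine signalling 7 and 1, ion channels 5 and 1, and guidance genes 9 and 1. Clock repressors had 7 higher and 1 lower, drug metabolism 7 higher, splicing regulators 6 higher and endothelial markers 5 lower. Larger moves were seen in growth factors, from 5 to 8 lower with 2 higher in both counts, in pericyte markers, from 3 to 5 lower, and in chemokines, from 4 to 8 lower. Oxidative stress genes went from 6 to 4 lower with 2 higher in both counts, and interferon-induced genes from 19 to 20 lower, with 1 higher. Atrial genes went from 3 lower to 2 lower and 1 higher, and RBM20 targets from 1 lower to 1 lower and 1 higher. Clock activators again had 2 lower, and lymphocyte markers 1. The 24 genes of smallest p each kept their sign without that library, which their choice by non-overlapping groups fixed in advance.

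**Figure D4:**
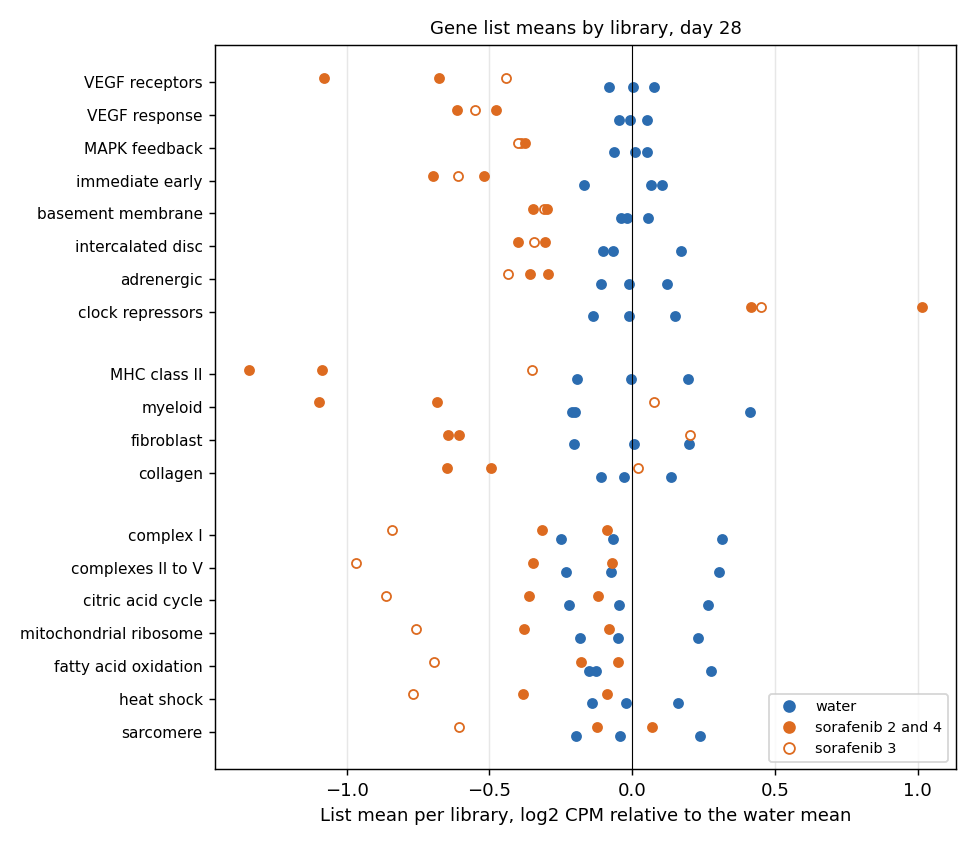
Mean of each list per library, in log2 CPM with the mean of water set to 0, with water libraries as blue points, sorafenib replicates 2 and 4 as filled orange points and replicate 3 as an open point. In the upper block the open point lies on the same side of the water points as the other sorafenib libraries. In the middle block (MHC class II, myeloid, fibroblast, collagen) it lies above the other sorafenib libraries, for MHC class II still under the water points. In the lower block (mitochondria, heat shock, sarcomere) it lies below the other sorafenib libraries.

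Some groups had few members below 0.05. Cell cycle genes had 3 of 30 lower, with the topoisomerase Top2a at 12.3, 15.5 and 11.99 CPM under water and 4.46, 6.61 and 6.14 under sorafenib (-1.27 ± 0.26), Mki67 (-0.58 ± 0.24) and Bub1b (-1.35 ± 0.56). Of 26 genes of apoptosis and growth arrest 3 were lower, among them Cdkn1a and Ccng1 (-0.71 ± 0.30). Muscle atrophy and autophagy had 1 of 24, Foxo4 (-0.36 ± 0.15), and PPAR alpha targets 1 of 21, Ppara (-0.47 ± 0.20). The glucocorticoid response had 3 of 24 (Dusp1, Cdkn1a and Lcn2, -0.83 ± 0.34), and cytosolic ribosomal proteins 1 of 41 (Rps13, -0.48 ± 0.20). Genes of the endoplasmic reticulum and integrated stress response were lower and below 0.05 in 6 of 28, with Pdia6 at 79.8, 97.00 and 118 against 67.4, 51.2 and 69.3 CPM (-0.63 ± 0.19), and Trib3, a pseudokinase of the stress response, was the 1 higher (1.47 ± 0.64). Without replicate 3 the glucocorticoid response turned to 4 higher (Hif3a, Klf15, Klf9 and Sult1a1) and 2 lower. PPAR alpha targets turned to 1 higher and 0 lower. Muscle atrophy and autophagy turned to 1 higher and 0 lower, and cytosolic ribosomal proteins to 0. Cell cycle genes went from 3 to 5 lower, those of apoptosis and growth arrest from 3 to 1, and those of the endoplasmic reticulum and integrated stress response to 4 lower and 0 higher.

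The day 28 changes were set beside those of day 14 in a fit of all 12 libraries, which has its own water group for each day. The day 14 values come from that fit and the day 28 values from the fit of 6 libraries. For the difference between the days 0 of 18174 genes (0%) passed the adjusted threshold in edgeR and 803 (4.42%) had an unadjusted p below 0.05, while DESeq2 called 9. The change at day 14 was -1.19 ± 0.21 for Spry4, -1.17 ± 0.23 for Nrp2, -1.16 ± 0.16 for Dyrk2, 1.43 ± 0.26 for Galnt15 and 1.63 ± 0.28 for Fmo2, with the sign of day 28. These are examples picked for agreement. For Atcay it was 0.14 ± 0.40, for Ciart 0.46 ± 0.41 and for Hopx -0.43 ± 0.24, each smaller than at day 28. It was -0.40 ± 0.24 for Ngdn and -0.12 ± 0.41 for Erich6, those of smallest p on the side where day 28 was higher, followed by the acetyl-CoA transporter Slc33a1 (-0.21 ± 0.13 at day 14 and 0.68 ± 0.15 at day 28). On the other side stood Pgf (1.95 ± 0.38 and -0.83 ± 0.38), Fabp4 (0.69 ± 0.16 and -0.41 ± 0.17) and the retinol-binding Rbp7 (2.05 ± 0.37 and -0.48 ± 0.35). The adjusted p of the difference was 0.85 for Slc33a1 and 0.717 for the other 5. Btg2 was at -0.10 ± 0.17 and Nrp1 at -0.32 ± 0.22 at day 14, with an unadjusted p of the difference of 0.00157 and 0.00355. Hamp, hepcidin, was at 2.90 ± 0.49 at day 14 and 0.59 ± 0.37 at day 28 (unadjusted p of the difference 0.00194), and Myh7 at 1.37 ± 0.29 and 0.39 ± 0.27 (0.0252).

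**Figure D5:**
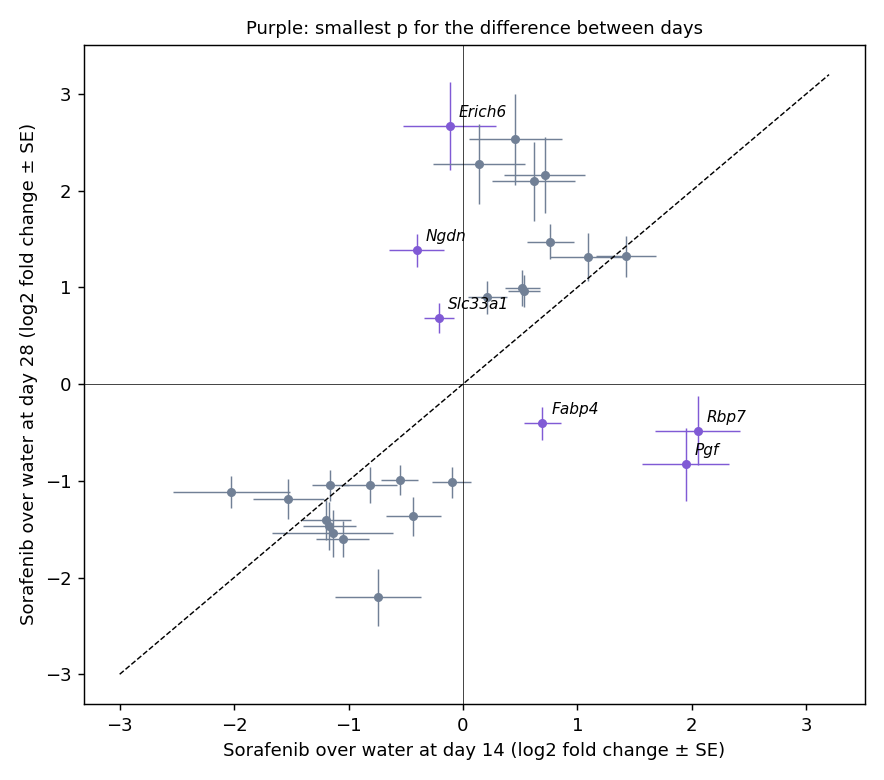
Log2 fold change of sorafenib over water at day 28 (vertical) against day 14 (horizontal) for the 24 genes of smallest p at day 28 and the 6 of smallest p in the difference between days, with bars of 1 SE, from separate fits of the day 28 libraries and of all 12. The diagonal marks equal changes, and Pgf, Rbp7, Fabp4, Ngdn and Erich6 lie far from it.

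Some genes named above have exons that overlap those of another annotated gene: Myh6, Galnt15, Mx2, Hopx, Flt1, Lama4, Clock, Jup, Adcy5, Clcn2, Igf2, Igf1r, Rbm20, Ttn, Rtn4, Myh7, Oasl2, Col15a1, Actc1, Ppara and Lrrn4. The setting for strand in the authors' counting is not given in the sources used here, so reads of such a gene and of its partner may not be told apart.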

How the data were processed

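Reads were aligned with STAR to mRatBN7.2 and counted per gene with featureCounts 2.0.1, per the submitters' processing notes and the file headers. The deposited values are raw counts per gene for 34322 genes, 1 table per day, and 2 further count columns match no sample and were not used. The setting for strand is not given in the sources used here.

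The 3 sorafenib and 3 water libraries of day 28 were fitted with edgeR 4.0.16 in R 4.3.3 (filterByExpr, TMM normalization, robust quasi-likelihood test, Benjamini-Hochberg adjustment over all genes tested), which was tested on simulated data. The difference between days was the interaction contrast in a fit of all 12 libraries, from which the day 14 values also come. DESeq2 1.42.0, limma 3.58.1 with sample quality weights, other normalizations and filters, a replicate block and leaving out each library in turn were alternatives. List means used log2 of CPM plus 0.5.

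The comparison and the 57 gene lists were chosen with earlier results of these data known. Named genes were the 12 of smallest p in each direction with non-overlapping groups and a mean of at least 2 CPM, up to 4 of smallest p per list, the 3 per direction of smallest p in the difference between days, and some fixed by name. Akap5, Apln, Clcn2, Dusp4, Gstm1, Igf1r, Sema4b, Trib3, Wt1, Hif3a, Klf15 and Klf9, most of which complete a count, were named after their values were seen. The bound for Sln without single water libraries was added after seeing the data.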

Additional observations from a re-analysis of the deposited data

How the results depend on the processing

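The number of genes past the adjusted threshold at day 28, 0 in edgeR, depended on the setting. It was 270 with DESeq2, 82 with no filter on low counts, 53 in the fit of all 4 groups, 404 with voom and quality weights, and between 0 and 3 when 1 library was left out. With RLE size factors, the stricter filter or no robust dispersion it was again 0. The replicate block gave 108. Same-numbered libraries had correlations of deviations of 0.104, 0.00808 and 0.194, and differently numbered ones ranged from -0.195 to 0.0612. With 3 libraries per group these values cannot show whether the replicate numbers pair the samples. The genes at an unadjusted p below 0.05 numbered 3992 with voom and quality weights and between 1451, without sorafenib replicate 2, and 3290, without sorafenib replicate 4, when 1 library was left out; without water replicate 4 there were 1669. Genes whose groups do not overlap numbered 3846 with all libraries and 4802 to 7519 with 1 left out, as fewer libraries have to be separated. For the difference between days DESeq2 called 9, and leaving out 1 library gave 0 to 1. Of the 2167 values of named genes under alternatives 20 had another sign, in Braf, Flt1, Myh6, Nppa, Nppb, Rbm20, Ryr2 and Wt1. None of these genes was below 0.05 in the main fit. Of the 155 named genes 136 were, most of them chosen by their p in these same libraries. A kept sign is therefore no independent support for them. Of 798 list medians 36 had another sign, in 14 lists. Among them were sarcomere genes without sorafenib replicate 3, and RBM20 targets without it or without water replicate 4. A list median counted as moved if it changed sign or shifted by at least the within-group SD of the library means. This held for 17 without sorafenib replicate 4, 10 without water replicate 4 and 5 without sorafenib replicate 3. Without each of the other libraries it held for 4 to 6. For the shallow sorafenib replicate 3 a single count is worth 0.965 CPM, which limits what it can show for genes of a few CPM. The cause of these differences between settings was not tested.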

Other observations

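Markers of the mesothelium, the cell layer that covers the heart, passed the filter in 5 of 11 genes. At an unadjusted p below 0.05, 3 were higher and 1 lower, and without sorafenib replicate 3 there were 3 higher and 0 lower. Msln, mesothelin, was at 0.188, 0.138 and 0.305 CPM under water and 1.17, 0.827 and 2.23 under sorafenib at day 28 (2.85 ± 0.63), and at day 14 the change was -2.66 ± 0.94 (unadjusted p of the difference 0.00366). Its day 28 levels rested on 4, 3 and 7 counts under water and 21, 1 and 36 under sorafenib. Muc16, a mucin of that layer, was at 0.565, 0 and 0.262 against 4.96, 0 and 9.68 CPM, with 0 counts in the shallow sorafenib replicate 3, and its change at day 14 was -2.20 ± 1.19. Lrrn4 had changes of 1.80 ± 0.63 at day 28 and -1.62 ± 0.69 at day 14. In these 3 genes, chosen by their p at day 28, the signs at the 2 days were opposite. The other 2 members did not follow them: complement C3, which other cells also make, was at 1.98, 1.01 and 18.00 against 1.67, 1.65 and 0.807 CPM (-2.44 ± 1.02, day 14 -0.68 ± 0.81), with the high water level in replicate 4 alone, and Wt1, a transcription factor of the layer, had changes of -0.01 ± 0.39 and -0.36 ± 0.32.

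Red cell transcripts lay lower at day 28 in 8 of 11 genes, 3 of them with an unadjusted p below 0.05. Without sorafenib replicate 3 there were 2 lower. The globin gene Hbb was at 251, 285 and 442 CPM under water and 228, 201 and 191 under sorafenib (-0.66 ± 0.23), and the anion exchanger Slc4a1 at 15.1, 14.9 and 14.9 against 11.5, 4.96 and 6.14 (-0.87 ± 0.29). Blood left in the tissue was not measured apart from these genes.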
